A study of Homo sapiens with 40 samples.

Results

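The clustered protocadherin genes on human chromosome 5 were taken as all GENCODE 44 protein-coding genes of that chromosome whose symbols start with PCDHA, PCDHB or PCDHG. These were 53 genes, 15 of PCDHA, 16 of PCDHB and 22 of PCDHG, of 19702 protein-coding genes in all. All CTCF and H3K27ac peaks and all listed enhancers were then followed from 50 kb before the first to 50 kb after the last of them (hg38 chr5:140736136-141562977, 826.842 kb).

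The cells were EndoC-βH3, an established human beta-cell line with an immortalizing transgene that a tamoxifen-activated recombinase can remove. The senescent groups had been treated with 4-hydroxytamoxifen for 3 weeks, the non-senescent groups were untreated controls of the same line, and the labels give the genotype of both as WT. Chromatin immunoprecipitation and sequencing had been done for CTCF and H3K27ac in 3 non-senescent and 3 senescent libraries each and for H3K4me1 and Rb in 2 and 2, with a matching input for every library. All groups come from 1 line, and the labels do not say whether libraries of a group came from separate cultures.

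Clustered protocadherins are cell-surface adhesion proteins best known from neurons, where each cell uses a small set of them as an identity tag. Each variable exon has its own promoter and is spliced to constant exons at the end of the PCDHA or PCDHG cluster. Most of these promoters, though not all, carry CTCF binding sites. PCDHB genes have a single exon and no constant exons. CTCF stops the cohesin motor and holds loops between promoters and distant enhancers whose CTCF motifs point the opposite way, and H3K27ac marks active promoters and enhancers. The C-type members PCDHAC1, PCDHAC2, PCDHGC3, PCDHGC4 and PCDHGC5 are regulated apart from the alternate members in neurons.

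The values below are mean normalized counts, which the authors computed over 3 non-senescent and 3 senescent libraries together. They carry no spread between libraries and no value per state, so all differences between promoters are descriptions with no test, and depth per library is unknown. As a measure of depth, mean counts summed over all peaks came to 6136424 for CTCF and 19239499 for H3K27ac. Over all protein-coding genes 66.3% had an H3K27ac peak at their promoter. Of the markers of beta cells, 12 of 12 had one. They included PDX1 at 10149, INS at 3078, IAPP at 204 and MAFA, the lowest, at 43.6. The 2 markers of blood, 2 of fibroblasts and 2 of endothelium had none. Of the delta-cell genes, 2 of 2 had one, HHEX at 363 and SST, the delta-cell hormone, at 54.2. Of the duct and acinar genes, 2 of 4 had one, CPA1 at 1498 and KRT19 at 913. Among alpha-cell genes IRX2 stood at 3342 and TTR at 1141, and GCG, the alpha-cell hormone, had none.

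The promoters themselves show what the 3 families share. The 110 bases before the first start site of the gene are given for 1 member of each family with a CTCF count well above its family's median (151 for PCDHA2 against 49.5, 130 for PCDHB13 against 14.5 and 293 for PCDHGA10 against 48.4), in hg38, plus strand, with every CGCT in capitals.
PCDHA2, chr5:140794742-140794851: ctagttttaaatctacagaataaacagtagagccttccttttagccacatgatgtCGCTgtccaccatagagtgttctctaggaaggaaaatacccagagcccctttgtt
PCDHB13, chr5:141213809-141213918: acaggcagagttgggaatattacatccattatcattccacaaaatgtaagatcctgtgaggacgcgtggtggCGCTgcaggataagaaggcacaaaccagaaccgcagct
PCDHGA10, chr5:141412877-141412986: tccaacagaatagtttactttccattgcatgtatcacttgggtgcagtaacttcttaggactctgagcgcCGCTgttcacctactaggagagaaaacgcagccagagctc
The element begins at position -55 before PCDHA2, -38 before PCDHB13 and -40 before PCDHGA10. It was searched for after these sequences had been read. CGCT stood on the gene's strand within 120 bases before the canonical start site in 48 of 53 members (90.6%), against 40.6% of 19689 protein-coding promoters, and on the other strand in 15 members. The longer CGCTG, which contains it, stood there in 41 of 53 members (77.4%) against 18.4% of all promoters. By family, CGCT was found in 14 of 15 PCDHA, 14 of 16 PCDHB and 20 of 22 PCDHG promoters. A match at any position counted, so the matches need not align between members. At PCDHB1, for example, they began at positions -105 and -84. The members with none in this window were PCDHA9, PCDHB6, PCDHB8, PCDHGA12 and PCDHGC5. A match describes letters in a window and is not by itself a binding site.

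A CTCF peak lay within 2 kb of a start site in 31 of 53 members (58.5%), and an H3K27ac peak in 12 of 53 (22.6%). Over all protein-coding genes these shares were 47.6% and 66.3%. With peaks of any count included, CTCF was thus found about as often at member promoters as at promoters at large and H3K27ac less often. Neither difference was tested. Each of the 31 CTCF peaks and 12 H3K27ac peaks belonged to 1 member alone. By family, CTCF was present at 9 of 15 PCDHA, 8 of 16 PCDHB and 14 of 22 PCDHG promoters, and H3K27ac at 6, 1 and 5 of them. The median CTCF count at member promoters was 37.0 (n = 31, range 6.80 to 293), against 57.6 over 11061 CTCF peaks at protein-coding promoters. The plot of members in genomic order shows a few tall CTCF promoters among many low or empty ones in PCDHA and PCDHG, and 1, PCDHB13, in PCDHB.

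**Figure D1:**
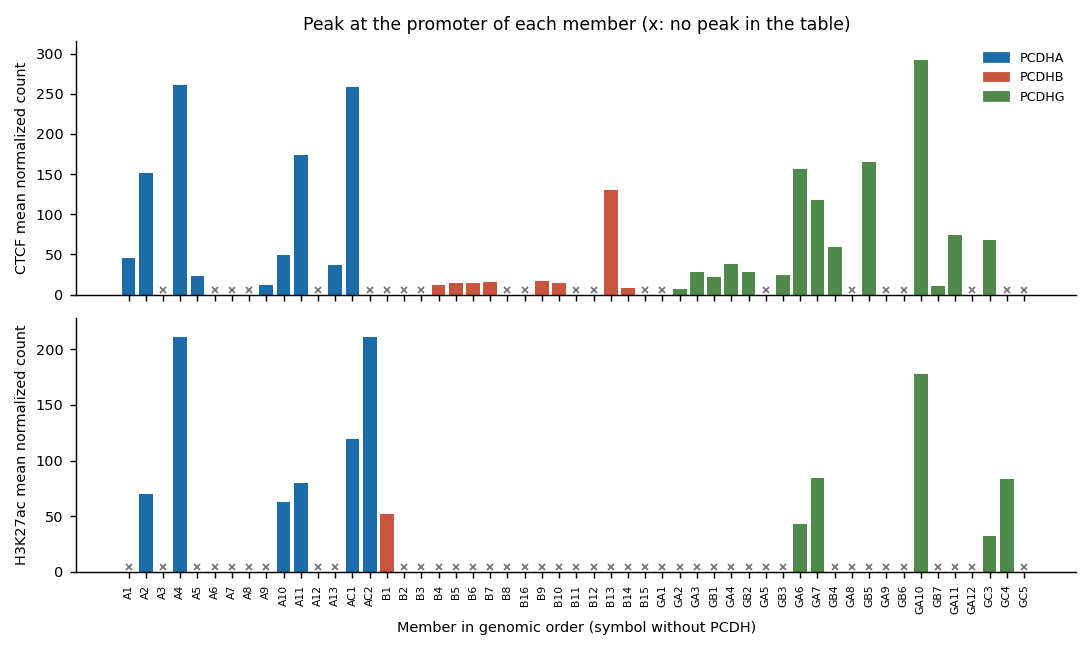
Mean normalized count (vertical axis, no unit) of the CTCF peak (top) and H3K27ac peak (bottom) at the promoter of each of the 53 members in genomic order (horizontal axis), coloured by family, with a cross where the table holds no peak. PCDHGA10, PCDHA4 and PCDHAC1 have the tallest CTCF bars at 293, 262 and 259, and only PCDHB1 has an H3K27ac bar among the PCDHB genes.

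In PCDHA, whose variable exons are spliced to shared constant exons, CTCF was highest at PCDHA4 (262), PCDHAC1 (259) and PCDHA11 (174). It was lowest at PCDHA9 (12.5), PCDHA5 (23.7) and PCDHA13 (37.0). High and low counts could stand next to each other along the chromosome, as at PCDHA4 and PCDHA5. PCDHA2 (151), PCDHA10 (49.5) and PCDHA1 (45.8) lay between them. H3K27ac was present at PCDHAC2 (211), PCDHA4 (211), PCDHAC1 (119), PCDHA11 (79.9), PCDHA2 (69.9) and PCDHA10 (62.9). PCDHAC2, the C-type member nearest to the constant exons, was the only one of these 6 with no CTCF peak. The promoters of the C-type pair are rich in G and C, 63.1% over 1 kb at PCDHAC1 and 64.5% at PCDHAC2, while the alternate PCDHA members ranged from 41.5% to 47.1%. PCDHA3, PCDHA6, PCDHA7, PCDHA8 and PCDHA12 had neither mark.

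In PCDHB, the family of single-exon genes, CTCF counts were low apart from PCDHB13. PCDHB13 stood at 130, and the next highest, PCDHB9 and PCDHB7, at 16.7 and 16.0. The lowest were PCDHB14 (8.69), PCDHB4 (11.7) and PCDHB5 (14.2), with PCDHB6 (14.2) and PCDHB10 (14.8) just above them. The PCDHB13 peak was 1042 bp wide and the other 7 ranged from 286 to 416 bp. PCDHB13 shared 46.4% of the 50-base stretches around its start site with another place in the region, the highest share of any member, and how the alignment treated reads that match several places is not given in the sources used here. The part of this in its count was not tested. PCDHB1, the member nearest to PCDHA and the first PCDHB gene along the chromosome, had the family's 1 H3K27ac peak (52.0) and no CTCF peak. PCDHB2, PCDHB3, PCDHB8, PCDHB16, PCDHB11, PCDHB12 and PCDHB15 had neither mark. Of these, PCDHB8 shared 42.2% of the 50-base stretches around its start site with another place in the region, and the rest 0%. The part of this in its lack of a peak was not tested.

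In PCDHG, where A-type and B-type genes alternate ahead of 3 C-type genes, CTCF was highest at PCDHGA10 (293), PCDHGB5 (165) and PCDHGA6 (156). It was lowest at PCDHGA2 (6.80), PCDHGB7 (10.3) and PCDHGB1 (22.3). PCDHGA7 (117), PCDHGA11 (73.7), PCDHGC3 (67.8) and PCDHGB4 (59.1) followed the leading 3, and PCDHGA3, PCDHGA4, PCDHGB2 and PCDHGB3 lay between 24.6 and 37.6. The 7 members with a count of at least 50 all lay from PCDHGA6 on. H3K27ac was present at PCDHGA10 (178), PCDHGA7 (84.3), PCDHGC4 (83.5), PCDHGA6 (43.0) and PCDHGC3 (32.1). Among the C-type genes, PCDHGC3 had both marks, PCDHGC4 had H3K27ac alone and PCDHGC5 had neither. PCDHGA1, PCDHGA5, PCDHGA8, PCDHGA9, PCDHGB6 and PCDHGA12 had neither mark.

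Of the 12 members with H3K27ac, 9 also had CTCF. H3K27ac lay at 9 of the 31 promoters with CTCF (29.0%) and at 3 of the 22 without it (13.6%). Over all genes the same shares were 83.2% and 51.0%. The 9 members with both marks were PCDHA2, PCDHA4, PCDHA10, PCDHA11, PCDHAC1, PCDHGA6, PCDHGA7, PCDHGA10 and PCDHGC3. Their CTCF counts ranged from 49.5 to 293 with a median of 156, and those of the 22 members with CTCF alone from 6.80 to 165 with a median of 23.0. The ranges overlap, since PCDHGB5 (165) and PCDHB13 (130) were high with no H3K27ac peak. Per kb of peak the medians were 104 and 48.0, so the difference between them was smaller once peak width was divided out. The 2 groups also differed in family. PCDHB, with a median CTCF count of 14.5, gave 8 of the 22 members with CTCF alone and 0 of the 9 with both marks. The difference was not computed by family. Other genes with a promoter CTCF peak were each given the count of their highest one. Their medians were 85.4 with H3K27ac (n = 7785) and 83.6 without it (n = 1555), nearly level. Values per kb were not computed for these genes. The members were chosen with results of these data known, and no test was made of this difference.

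**Figure D2:**
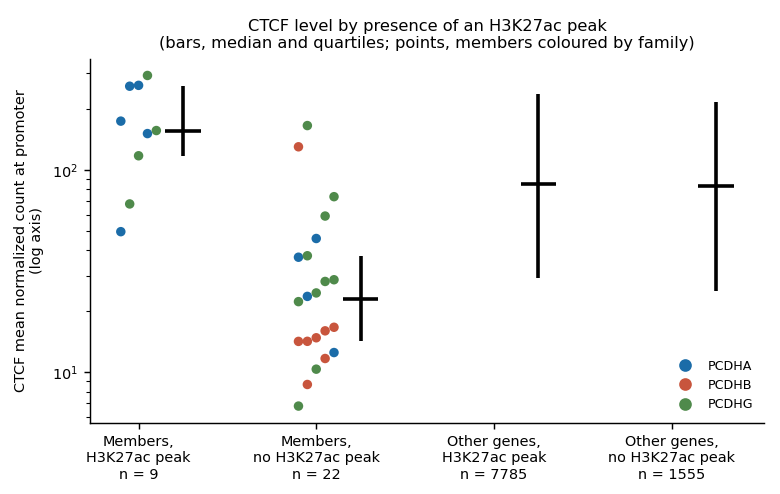
CTCF mean normalized count at the promoter (log axis) for members and for other genes, split by whether the promoter also had an H3K27ac peak, with points for single members coloured by family and bars for medians and quartiles. Member medians stand at 156 with H3K27ac and 23.0 without it, while those of other genes, by the highest peak of each gene, stand at 85.4 and 83.6.

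The H3K27ac peaks themselves were small. The 12 at member promoters had a median count of 81.7 (range 32.1 to 211) and a median width of 1070 bp, against 448 and 2716 bp over 14007 H3K27ac peaks at protein-coding promoters. The highest, PCDHAC2, stood at the 62.3 percentile of all 51489 H3K27ac peaks. Other protocadherins, encoded outside the cluster, had CTCF at 6 of 11 promoters with counts from 135 to 435. They had H3K27ac at 3 of 11, namely PCDH1 (1894), PCDH9 (336) and PCDH12 (15.6). Known regulators of protocadherin promoter choice, such as CTCF, the cohesin subunit RAD21 and the chromatin protein SMCHD1, were taken as 14 genes. All 14 had H3K27ac, from 193 to 3172, and 8 of the 14 had a CTCF peak. Over all protein-coding genes the shares were 66.3% for H3K27ac and 47.6% for CTCF. No RNA was measured in the files used here, so neither mark is an expression level.

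CTCF motifs were scored with a matrix of 19 positions estimated from 5000 strong CTCF peaks outside the region, of consensus NNGCCACCAGGGGGCGCNN. A motif was counted at a score of 10.9 bits or more, which 5% of equally wide regions 10 kb away reached. At this threshold 12 of the 31 member promoter peaks held a motif, and 60.9% of all 51457 CTCF peaks did. All 13 motifs in the 12 peaks stood on the plus strand, the strand of all 53 genes, and 0 on the minus strand. By family, 8 of 9 PCDHA, 4 of 8 PCDHB and 0 of 14 PCDHG peaks held one. The best match of each is shown for the promoters with a high or low CTCF count that the comparison rests on, 5′ to 3′, with positions 5 to 15 of the match in capitals.
PCDHA2, plus strand, chr5:140794783-140794801, score 11.4: tagcCACATGATGTCgctg
PCDHA10, plus strand, chr5:140855843-140855861, score 12.3: aagcCACCGGATGTCgctg
PCDHA4, plus strand, chr5:140807641-140807659, score 17.8: tttcCACTAGAGGGCgcct
PCDHA9, plus strand, chr5:140848949-140848967, score 16.0: tttcCACTAGAGGGCgcgt
PCDHA13, plus strand, chr5:140882722-140882740, score 14.9: tttcCACTAGATGGCgcat
PCDHB9, plus strand, chr5:141187076-141187094, score 18.4: aagcCACAAGGTGGCgctg
PCDHB13, plus strand, chr5:141213867-141213885, score 9.09: aggaCGCGTGGTGGCgctg
PCDHGB4, plus strand, chr5:141387619-141387637, score 1.07: ctgaCTCTGGGCGCCgctg
PCDHGB5, plus strand, chr5:141397865-141397883, score 1.07: ctgaCTCTGGGCGCCgctg
The first 2 lie before the start site and hold the CGCT element at their end. The next 3 lie in the coding part of the variable exon. The PCDHB and PCDHG sequences again lie before the start site and end in the same letters as the PCDHA ones there.

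The position of the motif differed between families. In windows set after the sequences had been seen, the best match within 150 bp before the canonical start site passed the threshold in 5 of 15 PCDHA, 5 of 16 PCDHB and 1 of 22 PCDHG members. Median scores there were 9.82, 9.24 and 1.03. From 450 to 750 bp after the start site it passed in 9 PCDHA members and in 0 PCDHB and 0 PCDHG members, with medians of 14.2, -0.37 and 1.57. The 9 exonic motifs of PCDHA, on the plus strand like the rest, had their centres 576 to 627 bp after the start site, and the 5 upstream ones 43 to 86 bp before it. PCDHA7 was the 1 member with a passing motif at both places, at 12.8 and 16.0, and it had no CTCF peak. The 1 passing PCDHG promoter, PCDHGA12 at 12.8, likewise had no CTCF peak. In all, 7 of the 22 members with no CTCF peak held a passing motif in 1 of the 2 windows or in both. These windows were scored for the members alone, so no share over all protein-coding promoters stands beside these counts. The threshold was set on regions as wide as the peaks and not on these windows.

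**Figure D3:**
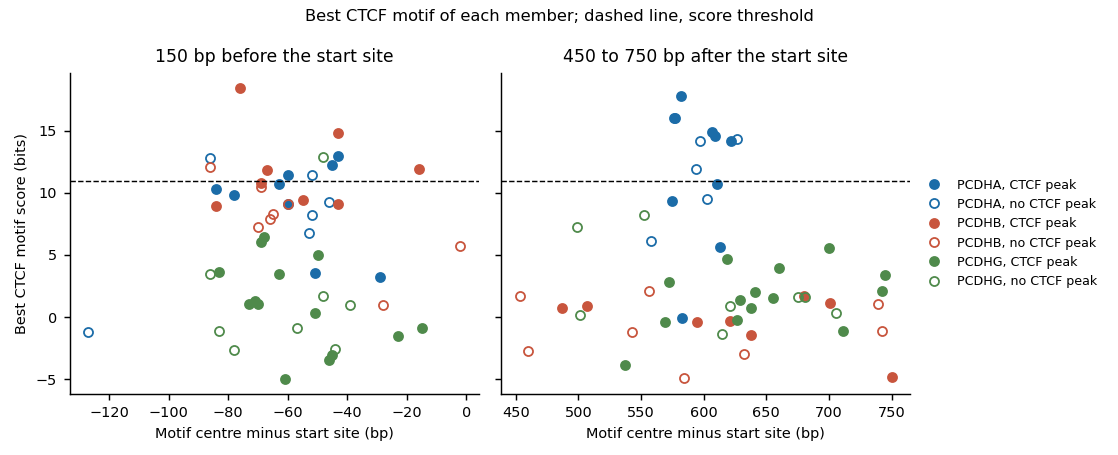
Score in bits (vertical axis) and centre relative to the canonical start site in bp (horizontal axis) of the best CTCF motif of each member before the start site (left) and in the first exon (right), with filled points for members with a CTCF peak, open points for those without and a dashed line at the threshold of 10.9. In the right panel 9 PCDHA points lie above the line and all PCDHB and PCDHG points below it.

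Some CTCF peaks of PCDHA lay over the exonic motif and not over the start site. The centre of the PCDHA5 peak was 581 bp and that of the PCDHA9 peak 519 bp after the start site, while the PCDHA1 peak was centred 45 bp before it. The peaks of PCDHA4 (1952 bp), PCDHA11 (1674 bp), PCDHA2 (1528 bp), PCDHA10 (1228 bp) and PCDHA13 (1191 bp) covered both places. Their counts do not tell the 2 places apart. In the exon, the best match of PCDHA2 (9.37) and PCDHA10 (10.7) was below the threshold. A high score did not go with a high count over the members pooled. PCDHA4 and PCDHA9, whose exonic sequences are shown above, scored 17.8 and 16.0 and had counts of 262 and 12.5. The PCDHA9 peak shared 73.4% of its 50-base stretches with another place in the region, the most of the 40 CTCF peaks, and the PCDHA4 peak 3.94%, and the part of this in the 2 counts was not tested. PCDHB9 had the best score of the PCDHB genes at 18.4 and a count of 16.7, while PCDHB13 scored 9.09 and had 130. PCDHGB4 and PCDHGB5 had the same best sequence and counts of 59.1 and 165, though they share 35.8% and 36.4% of the 50-base stretches around their start sites with another place in the region. Spearman's rho between count and best score was -0.11 over the 31 member peaks, which share the same libraries, and 0.53 over all CTCF peaks. The member value pools the families, and 0 of 14 PCDHG peaks held a motif. It was not computed by family.

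**Figure D4:**
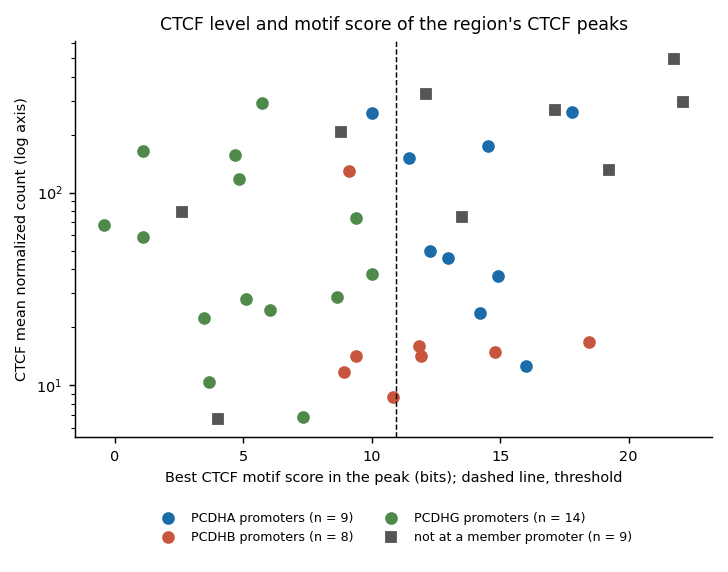
CTCF mean normalized count (log axis) against the best CTCF motif score in bits for the 40 CTCF peaks of the region, with circles for member promoters by family, squares for other peaks and a dashed line at the threshold of 10.9. PCDHG promoters reach 293 at scores below the threshold, and PCDHB points lie between 8.69 and 16.7 up to a score of 18.4, apart from PCDHB13 at 130.

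Outside the member promoters the region held 9 of its 40 CTCF peaks and 7 of its 19 H3K27ac peaks, and these included its highest counts. Over the whole region, member promoters included, CTCF peaks numbered 4.84 per 100 kb against 1.67 over the genome, and H3K27ac peaks 2.30 against 1.67. The 53 member promoters stand close together and held 31 of these CTCF peaks and 12 of these H3K27ac peaks. The densities were not adjusted for the number of promoters. The highest CTCF count was 496, at the 97.9 percentile of all CTCF peaks, at chr5:141523783-141525790 within the neighbouring gene DIAPH1, which encodes an actin-regulating formin, and within 2 kb of one of its start sites. Next came chr5:141319658-141321094 (326) at the promoter of TAF7, a subunit of the general transcription factor TFIID whose gene lies between PCDHB and PCDHG. The third, chr5:141511667-141513330 (297), covered the last exon that all 22 PCDHG genes share, outside their coding sequence.

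The highest H3K27ac count of the region was 1019, at the 90.5 percentile, at chr5:141039323-141041887 between PCDHA and PCDHB. It overlapped an exon of the long non-coding gene ENSG00000288892 and a CTCF peak of 270 at chr5:141039827-141041871. The enhancer HS5-1 of PCDHA is known to lie between these clusters, but neither the files nor the annotation name it. This H3K27ac peak was in neither enhancer list. The TAF7 promoter followed at 840. The third, at 149, was chr5:141512163-141515170, over the shared end of the PCDHG genes and the end of DIAPH1. All 12 member promoters, at 211 or less, were below the first 2, and PCDHAC2, PCDHA4 and PCDHGA10 were above the third.

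**Figure D5:**
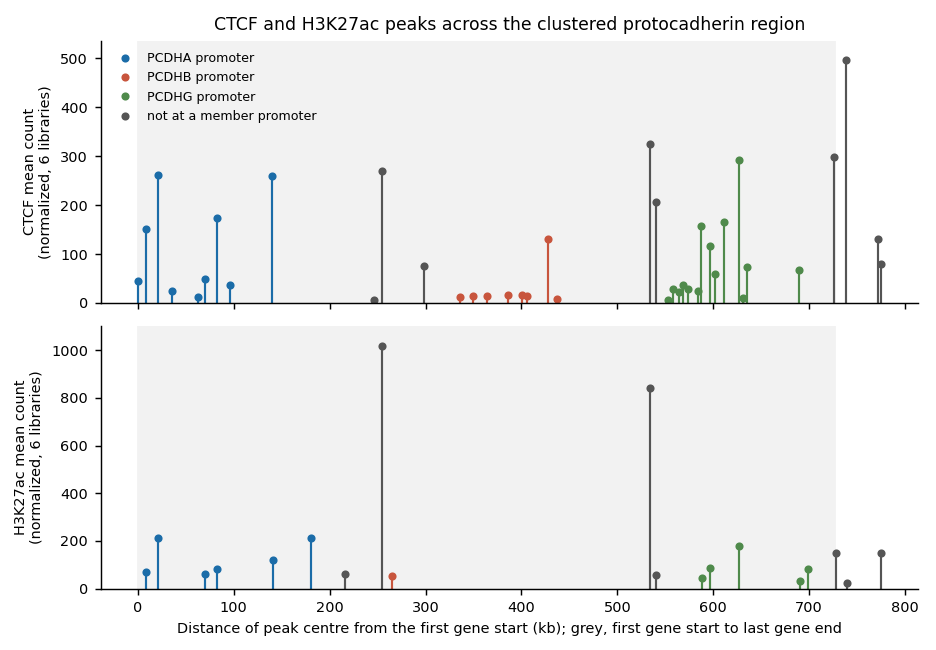
Mean normalized count (vertical axis) of each CTCF peak (top, 40) and H3K27ac peak (bottom, 19) against the distance of its centre from the first gene start in kb (horizontal axis), coloured by the family whose promoter it overlaps, with grey shading from the first gene start to the last gene end. The tallest CTCF line (496) lies beyond the last gene, and the tallest H3K27ac lines (1019 and 840) lie before PCDHB and before PCDHG.

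The motifs of these distal peaks pointed both ways. Of the 9 CTCF peaks, 6 held a motif, and the best one stood on the minus strand in 4 and on the plus strand in 2. Counting every motif, 5 stood on the minus and 3 on the plus strand. The best match is shown for the minus-strand peaks between PCDHA and PCDHB, at the end of PCDHG and in DIAPH1, read along the minus strand.
Between PCDHA and PCDHB, chr5:141041368-141041386, score 17.1: ctgcCACCAGGTGGCaggt
End of PCDHG, chr5:141512499-141512517, score 22.1: tggcCACTAGGGGGCgcac
DIAPH1, chr5:141524890-141524908, score 21.8: cagcCAGCAGGTGGCgctg
DIAPH1, second peak, chr5:141558030-141558048, score 19.2: tggcCGCCAGGGGGTgccc
The peak between PCDHA and PCDHB also held a second minus-strand motif (13.8) and a plus-strand motif (11.9) that overlaps the one shown, whose core reads similarly on either strand. The plus-strand best motifs were at the TAF7 promoter (12.1) and in a peak of 74.6 between PCDHB1 and PCDHB2, over the non-coding gene PCDHB1-AS1 (13.5). Thus 13 of 13 motifs at member promoters and 3 of 8 elsewhere in the region read along the plus strand.

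Of the values used here, only the enhancer and Rb lists set the 2 states side by side. The non-senescent list held 0 regions within the cluster and its flanks, of 14886, and the senescent list held 1, of 13076. Enhancers were defined away from promoters, so H3K27ac peaks at promoters, such as the 12 at member promoters, were left out by definition. No rate per kb was set beside these counts, and no difference between the states is read from 0 and 1. With flanks of 100 kb the lists held 2 and 3, and 2 were shared by both states, both in DIAPH1 beyond the 50 kb bound. The senescent one within 50 kb, chr5:141512163-141515170, had the bounds of the H3K27ac peak at the end of PCDHG and overlapped the CTCF peak of 297. It had no overlap with the non-senescent list, which is true of 20.5% of all senescent enhancers, so such a region is common. The lists hold positions and no levels, so the size of any change at this enhancer is not given by them. The list of Rb regions, called in senescent against non-senescent cells, held 2435 regions and 0 within the cluster and its flanks.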

How the data were processed

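ChIP-seq of EndoC-βH3 cells had been done in 40 libraries of 16 groups, 20 of them inputs. The methods of the study name Trim Galore for trimming, Bowtie2 for alignment (build hg38), HOMER for H3K27ac peaks, and MACS2 for CTCF peaks against input. The authors used DESeq2 for the comparison of states. Enhancers were regions with H3K4me1 and H3K27ac away from promoters. Tool versions and the way replicates were combined are not given in the sources used here. The methods describe a motif filter on CTCF peaks, yet 60.9% of the deposited peaks reached the motif threshold used here. The 2 deposited tables hold positions, a mean signal (the authors' own average of size-factor-scaled read counts, 6 libraries) and the authors' own comparison of senescent with non-senescent cells in 5 columns (log2 fold change, its standard error, the test statistic, p and adjusted p). Those 5 columns were not used. A count test had been planned if counts per library were given. They were not, so no test was made. The enhancer and Rb lists hold positions only.

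Promoters were 2 kb on either side of GENCODE 44 start sites of protein-coding transcripts, and an overlap was 1 bp or more. File starts count from 0 and are given here from 1. All 24 chromosome names matched hg38, with 0 regions beyond a chromosome end. The motif matrix started from the seed AGGGGGC in 5000 peaks, used 4929 sites and was checked on simulated data. Repeats were measured as the share of 50-base stretches within 500 bp of the canonical start site that occur elsewhere in the region. Work was done in Python 3.11.15 with numpy 2.4.6 and pandas 2.3.3.

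The members and lists were chosen with earlier results of these data known. Named with values were the 3 highest and 3 lowest CTCF promoters per family, all members with H3K27ac, the C-type members, PCDHB1, all members with no CTCF peak by symbol, the 3 highest peaks of each mark elsewhere, and all listed enhancers and Rb regions. Other values were named after they were seen. Windows, count minimum, motif threshold, flank and overlap were varied. The count over the alpha-cell markers is not reported here.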

Additional observations from a re-analysis of the deposited data

How the results depend on the processing

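The 31 member promoters with CTCF stayed at 31 with windows of 1 kb or 500 bp and with the canonical start site alone, and fell to 12 at a mean count of at least 50 and to 12 with peaks that hold a motif. The 12 with H3K27ac stayed at 12 with these windows and were 10 at a mean count of at least 50. Shares over all genes are given for the main setting alone, so the comparison with promoters at large was not made at the others. CTCF peaks of the region with a motif numbered 11 of 40 at the threshold met by 1% of shifted regions and 23 at 10%, against 18. Over all CTCF peaks the shares were 40.7% at 1% and 70.3% at 10%, against 60.9%. With no flank or one of 100 kb the region held from 37 to 45 CTCF peaks and from 17 to 27 H3K27ac peaks. The median CTCF count at member promoters was 0.642 of that over all promoter peaks, and 0.768 per kb of peak. Within the 50 kb flanks 0 enhancers were shared by both states at each overlap tried. With flanks chosen after seeing the data, 0 were shared with no flank and 2 with flanks of 100 kb.

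No paired analysis was possible because the tables hold no values per library, and leaving out each library in turn was not run for the same reason. The mean counts join both states and have no error, the depth of each library is unknown, and a promoter with no listed peak has no value, so weak binding there was not measurable.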
